A study of Mus musculus with 12 samples.

Results

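Malat1, Neat1, Bc1, Rnu11 and Gm20594 were followed through total RNA and ribosome-protected fragments (RPF, or footprints) of B16 cells, a mouse melanoma line. All 5 symbols are among the 24421 genes of the count table. They were chosen with these data in view, as noncoding transcripts with high or changed counts in the 12 libraries. Their levels and differences are therefore given as a description, with standard errors and no p-values. The name noncoding holds for 4 of the 5 in RefSeq, where Gm20594 has a protein-coding entry. High footprint counts hold for Rnu11 and Gm20594. Rnu11 ranked 1 among the 3765 genes with a RefSeq biotype other than protein coding by mean footprint level in control cells. Malat1 ranked 6 and Bc1 12 on that scale, and Neat1 ranked 93.

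The cells had been transduced with lentivirus that carried a non-relevant shRNA (shControl) or 1 shRNA against Elp3 (shElp3, named sh309 in the labels), so that every group carries a lentiviral vector. Elp3 is the catalytic subunit of Elongator, which begins the modification of the wobble uridine of some tRNAs. Total RNA after removal of ribosomal RNA and RPF were each sequenced from 3 cultures per shRNA, lettered A to C, and the labels tie each RPF library to the RNA library of its culture. The labels do not say that the cultures were separate transductions.

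In ribosome profiling, nuclease digests RNA outside the ribosome and the fragments that remain are counted. A fragment can also remain because a protein other than a ribosome, or a fold of the RNA, shields it, and structured small RNAs are known to be recovered this way. Malat1 and Neat1 are long RNAs kept in the nucleus, Malat1 in nuclear speckles and Neat1 as the scaffold of paraspeckles, while ribosomes translate in the cytoplasm. Bc1 is a short cytoplasmic RNA of rodents, known from neurons as a repressor of translation and made by RNA polymerase III. Rnu11 encodes the U11 small nuclear RNA, which recognises the 5′ splice site of minor introns. Gm20594 has the synonym Mtrnr2l: its sequence resembles the mitochondrial 16S ribosomal RNA gene, in which the humanin peptide was described.

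The genes lie at 4 places of the genome (GRCm38, 1-based). Malat1 (chromosome 19, 5795690 to 5802672, 6983 bases) and Neat1 (chromosome 19, 5824708 to 5845480, 20773 bases) are neighbours, 22035 bases apart. The small RNA gene Mascrna lies inside Malat1, and no other RefSeq gene overlaps the 5. Bc1 is 154 bases long (chromosome 7, 144914470 to 144914623), 476 bases from LTO1, and a pseudogene Bc1-ps1 carries its name as a synonym. Rnu11 is 108 bases long (chromosome 4, 132270079 to 132270186) and Gm20594 is 334 bases long (chromosome 6, 79818031 to 79818364). Reads from near-identical copies cannot be assigned with certainty, which makes the counts of Bc1 and Gm20594 uncertain, and the table lists 0 genes whose symbol starts with mt-. Strand use in the counting is not given in the sources used here.

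The first 50 transcribed bases of Bc1 and Malat1 (RefSeq, GRCm38.p6) are shown because they set a polymerase III transcript that resembles a tRNA beside a polymerase II transcript. Capitals mark a match to the A box, the internal promoter element of tRNA genes.
Bc1 (chr7:144914470-144914519, plus strand): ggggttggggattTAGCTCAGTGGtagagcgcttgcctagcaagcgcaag
Malat1 (chr19:5802623-5802672, minus strand): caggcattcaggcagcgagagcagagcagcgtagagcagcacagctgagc
The match in Bc1 covers bases 14 to 24 of the transcript. Of the 5 genes, 3 had a window of 250 bases before to 50 after the start in the RefSeq table, and these were searched on both strands. Of all 32851 windows 7.07% hold an A box match, and 0.481% hold one within the first 50 transcribed bases on the same strand. The Malat1 and Gm20594 windows hold no match, and TATAAA, in 13.6% of all windows, is in none of the 3.

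The 6 RNA libraries held 7914369 to 16527864 counts each and the 6 footprint libraries 7619269 to 10998570. In all groups but shElp3 RPF the letter A library differed most from the other two: the Spearman correlation across genes was 0.866 and 0.876 between A and the other shControl RNA libraries, against 0.992 between B and C, with 0.926 and 0.934 against 0.985 in shElp3 RNA, 0.941 and 0.947 against 0.992 in shControl RPF, whereas in shElp3 RPF it was 0.991 for A and B, 0.982 for A and C and 0.987 for B and C. Elp3 itself lay between 64.7 and 90.1 CPM (counts scaled to the effective library size) in shControl RNA and between 33.1 and 39.2 in shElp3 RNA, and between 104.6 and 127.1 and between 51.7 and 63.9 in RPF. All 7 melanocyte markers passed the count filter, with sums of 8458 to 10889 CPM in shControl RNA, 5533 to 6920 in shElp3 RNA, 15536 to 36962 in shControl RPF and 12043 to 20762 in shElp3 RPF. All 7 had values below 0 in shElp3 against shControl in both fractions. Pmel, a melanosome protein, fell in RNA (log2 difference -1.59, SE 0.26, adjusted p = 0.040 in edgeR) and in RPF (-1.81, SE 0.35, adjusted p = 0.036). Pmel lay at 1709 to 1934 CPM in shControl RNA and 555 to 656 in shElp3 RNA. In RPF it lay at 2424 to 6282 and 915 to 1478 CPM. Both Pmel calls ended when 1 library was left out, as 0 genes of the whole table were then called. This loss of all calls, not particular to Pmel, held in RNA for any library but shControl A, and in RPF for any shElp3 library. Of the leukocyte markers 2 of 7 passed (Cd68 and Lyz2), with sums of 7.21 to 21.4 CPM in shControl RNA, 5.75 to 11.5 in shElp3 RNA, 26.5 to 83.2 in shControl RPF and 15.1 to 34.8 in shElp3 RPF. Ptprc, the pan-leukocyte marker, had no count in either RNA group or in shControl RPF. Of the fibroblast markers 2 of 6 passed (Col1a1 and Pdgfra), with sums of 12.6 to 22.6 and 20.7 to 40.7 CPM in RNA and 27.1 to 28.4 and 37.3 to 41.2 in RPF, Col3a1, Dcn and Lum being at 0 in both RPF groups. Col1a1 rose in RPF from 6.24 ± 0.736 to 16.9 ± 2.92 CPM (log2 difference 1.48, SE 0.22, adjusted p = 0.020 in edgeR). This call also ended without any 1 shElp3 RPF library. Pdgfra had 21.2 ± 0.935 and 22.3 ± 2.07 CPM there and was not called. The fibroblast sum was thus higher in shElp3 footprints, as were Malat1, Neat1 and Bc1, and the melanocyte sum was lower in shElp3 RNA without overlap. The part of either in those differences was not tested.

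Malat1 was the most counted gene in all 6 RNA libraries. Its level there was 30923, 20984 and 14262 CPM in shControl A, B and C and 29310, 24304 and 31710 CPM in shElp3 A, B and C. It took 1.63 to 3.60% of each RNA library. The groups overlapped, with shControl C lowest, and the log2 fold change (shElp3 against shControl) was 0.36 (SE 0.46). In footprints the same RNA had 343, 305 and 155 CPM in shControl and 872, 353 and 743 CPM in shElp3, from 1579 to 6755 fragments per library. Here the groups did not overlap, but shElp3 B lay close to shControl A. The log2 fold change was 1.34 (SE 0.39), and the ratios between libraries of the same letter were 1.35 in A, 0.21 in B and 2.26 in C. In bulk RNA, a change in the number of cells with a transcript and a change in its level per cell cannot be told apart.

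Neat1 was much rarer than its neighbour and was higher in shElp3 in both fractions. Its RNA level was 107, 275 and 239 CPM in shControl A, B and C and 346, 500.3 and 754 CPM in shElp3. The RNA groups did not overlap, and the log2 fold change was 1.35 (SE 0.45). Footprint libraries held few Neat1 fragments: 32, 56 and 34 in shControl and 141, 124 and 212 in shElp3, or 4.79, 6.06 and 3.34 against 18.7, 13.5 and 23.3 CPM. All 3 shElp3 libraries lay above all 3 shControl libraries. The log2 fold change in footprints was 2.02 (SE 0.31), with 1.97, 1.15 and 2.8 within letters A, B and C, beside 1.70, 0.865 and 1.66 in RNA. Across the 12 alternative fits of each fraction Neat1 stayed between 1.03 and 1.62 in RNA and between 1.80 and 2.24 in footprints.

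Bc1 had higher footprint levels in shElp3, while its RNA levels overlapped between the shRNAs. Its RNA level was 985, 156 and 119.8 CPM in shControl A, B and C and 324, 206 and 125 CPM in shElp3. Letter A was highest in both groups, and the groups overlapped. The log2 fold change in RNA was -0.94 (SE 0.80) and turned to 0.63 without shControl A and to 0.23 with letters B and C only, so its direction rested on that library. In footprints Bc1 had 135, 47.7 and 50.5 CPM in shControl and 176, 345 and 268 CPM in shElp3, which did not overlap. The log2 fold change was 1.80 (SE 0.44), and the letters gave 0.38 for A, 2.85 for B and 2.41 for C. Without shControl A it was 2.46. Divided by the RNA of the same culture, Bc1 footprints were higher in shElp3 by 1.99, 2.45 and 2.35 (log2) within letters A, B and C, and the fitted value was 2.67 (SE 1.01), or 1.12 without the shControl A RNA library.

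Rnu11 was scarce in RNA and among the most counted genes in footprints. Its RNA level was 36.6, 49.8 and 53.8 CPM in shControl A, B and C and 4.84, 40.4 and 49.4 CPM in shElp3. The shElp3 A library, with 85 counts, was the low one, and the groups overlapped (log2 fold change -0.58, SE 0.70, and -0.07 without that library). Its footprint level was 13217, 3204 and 3079 CPM in shControl and 5380, 3598 and 4244 CPM in shElp3. Rnu11 was the most counted gene of the shControl A footprint library, at 1.16% of its counts, and ranked between 8 and 20 in the others. The groups overlapped, and the log2 fold change of -0.52 (SE 0.55) turned to 0.53 without shControl A. Within B and C shElp3 was higher by 0.17 and 0.46.

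Gm20594 too was scarcer in RNA than in footprints. In RNA its level was 118, 417 and 346 CPM in shControl A, B and C and 62.2, 619 and 295 CPM in shElp3, where letter A was lowest in each group (log2 fold change 0.13, SE 0.78, and -0.74 without shElp3 B). Footprint libraries had 5738, 3327 and 6464 CPM in shControl and 5086, 17985 and 8060 CPM in shElp3. The shElp3 B library held 165332 fragments, 1.74% of its counts and more than from any other gene. The groups overlapped, and the log2 fold change of 1.04 (SE 0.46) was 0.40 without shElp3 B. The ribosomal RNA precursor entry Rn45s, chosen after its values were seen, was also highest in that library, at 453 CPM against 175 to 376 in the other 5 RPF libraries. In RNA Rn45s was at 685.7 to 1360 CPM, above every RPF library, whereas Gm20594 was lower in RNA than in RPF. Both were highest in shElp3 B in RNA too. The part of Rn45s in the Gm20594 value was not tested.

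**Figure D1:**
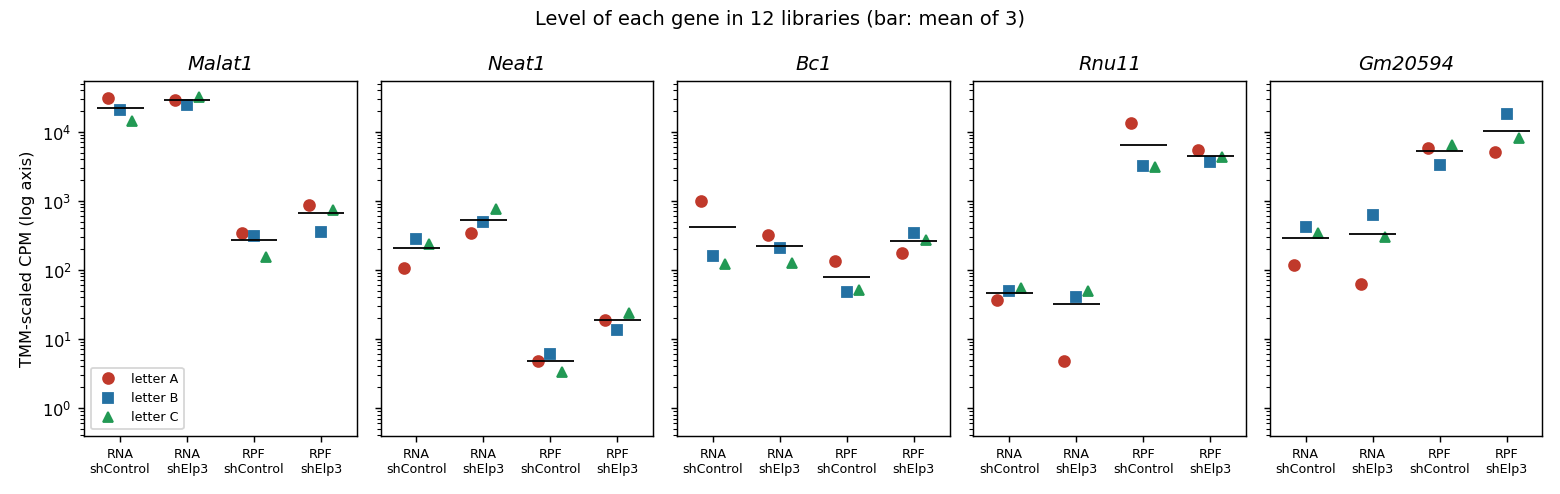
Level of the 5 genes in TMM-scaled CPM (vertical log axis) in each of 12 libraries, by fraction and shRNA. Each point is a library, with its letter shown by shape and colour, and each bar is the mean of 3. Malat1 and Neat1 sit lower in RPF than in RNA, Rnu11 and Gm20594 higher, and Bc1 overlaps in both shRNAs.

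Per kilobase of RefSeq gene length, the order of the genes differed between the fractions. In shControl RNA the mean level in CPM per kilobase was 3159 ± 1200 (SD, n = 3) for Malat1, 2729 ± 3177 for Bc1, 878 ± 467 for Gm20594, 433 ± 83.3 for Rnu11 and 9.95 ± 4.26 for Neat1. Each neighbour in that order overlapped the next in range except Rnu11 and Neat1. In shControl footprints the order of the means was Rnu11 (60187 ± 53866), Gm20594 (15498 ± 4916), Bc1 (504 ± 321), Malat1 (38.3 ± 14.2) and Neat1 (0.228 ± 0.0656), and no neighbours overlapped. These lengths are those of the reference, and the features the authors counted over may be longer or shorter.

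Of the 5 genes, 1 was higher without overlap in shElp3 RNA (Neat1) and 0 lower, where 10.6% of the 12274 tested genes were higher and 9.27% lower. In footprints 3 were higher (Malat1, Neat1 and Bc1) and 0 lower, against 13.0% and 17.6% of 11343. In edgeR (adjusted p under 0.05) none of the 5 was called in RNA, where 1.14% of all tested genes were (0.220% higher, 0.921% lower). With the letter as a block Neat1 was called higher in RNA, and with letters B and C only Neat1 and Malat1 were. Neat1 was called in footprints, where 4.83% were (1.77% higher, 3.06% lower). That call ended when any 1 RPF library other than shControl A was left out. Other settings called more of the 5 higher in footprints, beside Neat1. DESeq2 called Malat1 and Bc1, and so did the fit with no count filter. Dropping the shControl A library gave calls for Malat1, Bc1 and Rnu11. Fitting letters B and C alone gave calls for Malat1, Bc1 and Gm20594, and the replicate block added Bc1. The shares given above are those of the main fit. In RPF, genes called higher were 528 of 11343 with DESeq2, 265 of 17516 with no count filter and 222 of 11343 with the block. They were 1239 of 11530 without shControl A and 1076 of 11440 with letters B and C only. In RNA they were 670 of 12274 with the block and 1090 of 12281 with letters B and C only. Nothing can be read from these counts, since the same values chose the genes. The footprint to RNA ratio was compared between shRNAs in 1 model over all 12 libraries. There 0.00% of 11238 genes were called, none of the 5 among them, and DESeq2 called 0. An unadjusted p under 0.05 in edgeR was found for 62 genes, a smaller share than chance alone would give. The 0 calls therefore do not show that the ratios were equal. When only letters B and C were used 2 genes were called, and Bc1 was 1 of them (log2 difference 2.44, SE 0.30). Log2 differences of that ratio (shElp3 against shControl) were 0.92 (SE 0.59) for Malat1, 0.62 (0.57) for Neat1, 0.86 (1.01) for Gm20594 and -0.01 (1.02) for Rnu11. The Rnu11 value kept its sign in 7 of 18 alternatives, was 1.08 without shControl A in RPF, and its same-letter values were 1.62 (A), 0.47 (B) and 0.587 (C). The Gm20594 value was 0.21 without shElp3 B in RPF and 1.73 without shElp3 B in RNA.

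**Figure D2:**
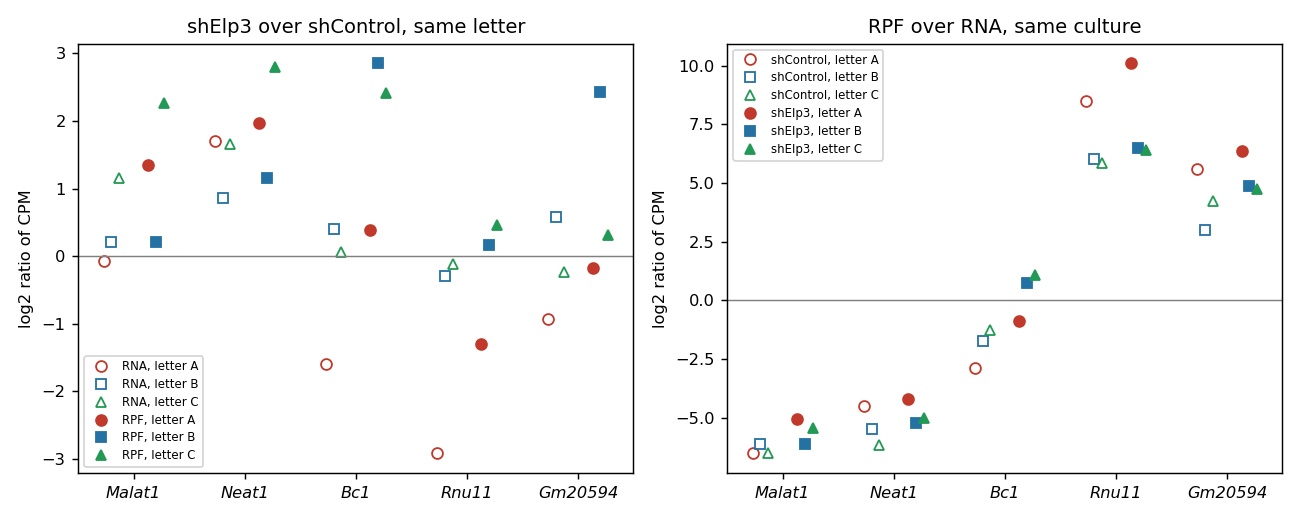
Log2 ratios of CPM (vertical axes) for the 5 genes, shElp3 over shControl within each letter (left, open points RNA and filled points RPF) and RPF over RNA of the same culture (right, open points shControl and filled points shElp3). Neat1 lies above 0 in all 6 comparisons on the left, and on the right Malat1 and Neat1 lie below -4 and Rnu11 above 5 in all 6 cultures.

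How far footprints track RNA was described next, by setting RPF against RNA of the same cells. In shControl the log2 ratio was -6.41 (SE 0.52) for Malat1, which leaves 0.0109 to 0.0145 times the RNA level in the 3 cultures. Neat1 had -5.52 (SE 0.48). Bc1 had -2.46 (SE 0.74), which was -0.90 without the shControl A RNA library and -1.56 when only B and C were used. At the other end Rnu11 had 7.07 (SE 0.92), or 57.2 to 361 times its RNA level, and Gm20594 had 4.07 (SE 0.81), or 7.99 to 48.6 times. In shElp3 the values were -5.49 (SE 0.50), -4.91 (SE 0.46), 0.22 (SE 0.70), 7.06 (SE 0.92) and 4.92 (SE 0.84) in the same order of genes. Malat1 and Neat1 were lower and Rnu11 and Gm20594 higher in RPF without overlap in both shRNAs, where the share of all tested genes without overlap was 22.0% lower and 21.4% higher in shControl and 29.2% and 29.3% in shElp3. Bc1 overlapped in both. In edgeR 5 of the 5 were called in shControl, where 36.5% of all tested genes were (15.8% higher, 20.7% lower), and 4 in shElp3, where 38.8% were (16.4% higher, 22.4% lower). The Bc1 call in shControl ended without RNA shControl A, RPF shControl B or RPF shControl C. These counts too restate the values that chose the genes.

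The place of these ratios among all tested genes was as follows. In shControl 3 of 10972 other protein-coding genes had a lower ratio than Malat1 and 6 a lower ratio than Neat1, and 0 of 163 other genes with a long noncoding RNA (lncRNA) biotype lay below either. The list described further on holds 2900097C17Rik, which lay below both but is not among the 163 because its symbol has no unique RefSeq match. Of 41 other small noncoding RNAs 1 was lower than both. No tested gene of these 3 classes lay above Rnu11, and 1 protein-coding gene and 2 small noncoding RNAs lay above Gm20594. In shControl 24 of the 163 lncRNAs and 157 of the 10972 coding genes lay below Bc1, and in shElp3 148 and 6742 did, so that it stood low in shControl and high among lncRNAs in shElp3. The letter A cultures gave the highest Rnu11 ratios, 361 in shControl and 1111 in shElp3, beside 57.2 to 89.1 in B and C.

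The other genes of these classes were not chosen by their values, and they were tested one by one. Among lncRNAs 94 of the 163 tested in shControl were called lower in RPF and 1 higher (edgeR, adjusted over all genes), with a median log2 ratio of -1.31. Of the 10972 coding genes 2192 were lower and 1759 higher, with a median of -0.02. Small noncoding RNAs went both ways, with 7 of 41 higher, 8 lower and a median of -0.18. Only genes counted in both fractions could enter: 413 lncRNAs other than the members passed the filter in RNA. With no count filter 317 of 1026 lncRNAs were called lower, a smaller share.

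**Figure D3:**
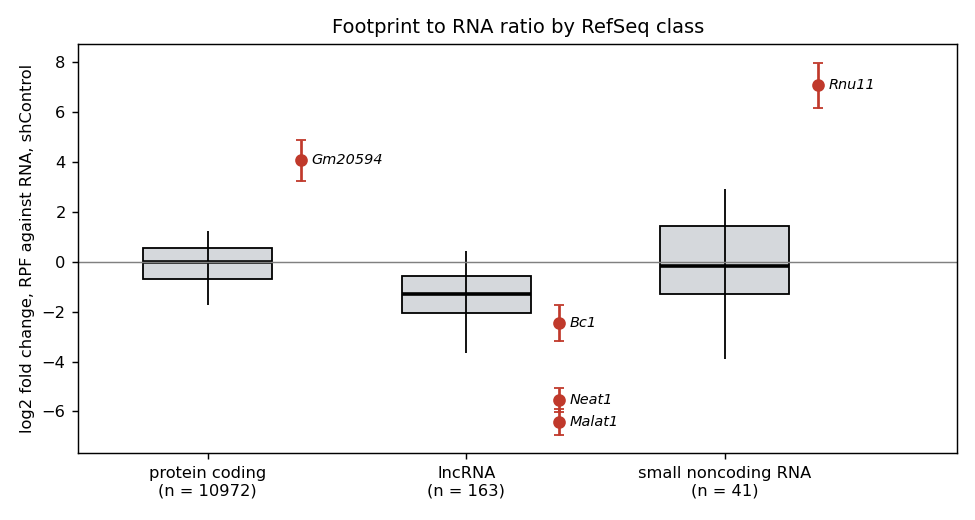
Log2 fold change of RPF against RNA in shControl (vertical axis) by RefSeq class, where a box spans the quartiles, its line is the median and whiskers run from the 5th to the 95th percentile of the genes other than the 5. Red points are the 5 genes with their SE, drawn at their own class. Malat1 at -6.41, Neat1 at -5.52, Rnu11 at 7.07 and Gm20594 at 4.07 lie outside the whiskers of theirs, and Bc1 at -2.46 lies inside.

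A list of 35 other long noncoding RNAs, of which 29 are in the table, showed low footprint levels. The list was written with earlier results of these data known, so its counts are a description. Of the 12 tested members 10 were called lower in RPF than in RNA in shControl and 0 higher (median -2.36, against -0.03 over all tested genes). In shElp3 11 were lower. Of all tested genes 20.7% were lower in shControl and 22.4% in shElp3, and of the lncRNA biotype without the 5 members 57.7% and 62.6%. The lowest was 2900097C17Rik, at 626 ± 119 CPM in RNA and 5.82 ± 1.18 in RPF (log2 ratio -6.81, SE 0.25, edgeR adjusted p = 2.9e-08), and 1700020I14Rik had -4.11 (SE 0.29). The first symbol is an older name of both Norad and Bscl2 in RefSeq, and Bscl2 has a row of its own, so it was left out of the biotype classes. Gas5, a spliced host of small nucleolar RNAs, had -0.91 (SE 0.60, adjusted p = 0.25 in edgeR) in shControl. In shElp3 it had -1.98 (SE 0.62, adjusted p = 0.025 in edgeR) and was called lower. Between shRNAs 2 of 12 tested members rose in footprints (of all tested genes 1.77% rose and 3.06% fell, the background for this and the footprint counts of the next lists): Pvt1, the RNA beside Myc, with 8.19 ± 1.74 and 18.5 ± 1.44 CPM (log2 difference 1.22, SE 0.21, adjusted p = 0.028 in edgeR), and Trp53cor1, a p53 target, with 3.94 ± 0.659 and 11.3 ± 1.19 CPM (1.57, SE 0.23, adjusted p = 0.020). None of the 17 tested in RNA was called (median 0.23). With the letter as a block 4 were higher and 1 lower, and 2 and 1 with DESeq2. These settings called more of the whole table than the main fit, whose shares do not apply to them. In RNA the block called 670 of 12274 higher and 829 lower, and DESeq2 231 and 421. Letters B and C only, used for the next lists, gave 1090 and 1287 of 12281 in RNA. In RPF they gave 1076 and 1401 of 11440. The footprint calls for single genes here and in the lists that follow all ended when any 1 shElp3 RPF library was left out, as 0 genes of the whole table were then called; those of Pvt1 and Trp53cor1 also ended without shControl B or C.

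Small noncoding RNAs were given by a list of 147 symbols, 130 of them in the table. In shControl 7 of 39 tested were higher in RPF than in RNA and 8 lower, with a median of -0.22, near the 15.8% and 20.7% of all tested genes. The small nucleolar RNA Snord57 resembled Rnu11, with 3.12 ± 3.42 CPM in RNA and 236 ± 130 in RPF (log2 ratio 6.18, SE 0.74, edgeR adjusted p = 0.00011). Scarna13, a Cajal body RNA, was the opposite, with 130 ± 42.2 and 1.54 ± 0.387 CPM (-6.44, SE 0.43, adjusted p = 4.2e-06 in edgeR). The RNA of ribonuclease P, Rpph1, and that of the related ribonuclease MRP, Rmrp, ranked 2 and 3, after Rnu11, in footprint level among genes with a biotype other than protein coding. Rpph1 had 5102 ± 1595 CPM in shControl RPF and 11828 ± 8368 in RNA. Rmrp footprints rose in shElp3, at 8834 ± 3737 CPM against 3211 ± 887 (log2 difference 1.5, SE 0.33, adjusted p = 0.044 in edgeR), and Rmrp was the single one of 45 tested to be called there. Its RNA value was -0.30 (SE 0.90), and 0 of 86 were called in RNA (2 higher and 2 lower with the letter block). With letters B and C only, 15 were higher in RNA and 6 in RPF. Of all tested genes 1090 of 12281 and 1076 of 11440 were then higher. Next by footprint level came the lncRNA genes Gm10845 (1291 ± 63.8 CPM in shControl RPF) and Gm19757 (1082 ± 118), whose ratios to RNA of 0.36 (SE 0.25) and -0.11 (SE 0.28) were not called.

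Proteins that work with these RNAs were looked at as mRNAs. None of the 16 paraspeckle proteins was called in RNA between shRNAs (median -0.54, against -0.02 over all genes; 15 of 16 values below 0), and with the letter block 4 were lower, among them Nono and Cpsf6. In footprints 1 fell, the chromatin remodeller Smarca4 (-0.60, SE 0.13, edgeR adjusted p = 0.043), with a median of -0.41. Nono, a core paraspeckle protein, was at 327 ± 55.9 and 191 ± 6.12 CPM in RNA (log2 difference -0.78, SE 0.22, adjusted p = 0.18 in edgeR). With letters B and C only, 9 of the 16 were lower in RNA and 10 in footprints. Of all tested genes 1287 of 12281 and 1401 of 11440 were then lower. Of 12 nuclear speckle proteins 0 were called in RNA (median -0.37; 3 lower with the block), and 2 fell in footprints: the splicing factor Srsf7 (-1.25, SE 0.23) and the speckle protein Pnn (-0.58, SE 0.13), with adjusted p = 0.033 and 0.044 in edgeR and a list median of -0.51. With letters B and C only, these counts were 5 and 8. Neither the RNA nor the footprints of the 9 tested proteins of the U11/U12 minor spliceosome were called (medians -0.22 and -0.13; Snrnp48 was lower in RNA with the block, and 3 were called in footprints when only B and C were used).

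Of 11 proteins reported to bind Bc1 or its primate counterpart BC200, 0 were called in RNA (median -0.23; 3 lower with the block) and 1 fell in footprints (median -0.06). That was Hnrnpa2b1, an RNA transport protein, with 668 ± 202 and 320 ± 34.9 CPM (log2 difference -1.01, SE 0.22, adjusted p = 0.042 in edgeR). With letters B and C only, 3 were lower in RNA, and 4 were lower and 1 higher in footprints. The poly(A)-binding protein Pabpc1 had 1517 ± 695 and 1310 ± 832 CPM in RNA and 421 ± 150 and 416 ± 168 in RPF. No member of any of the 6 lists was called for a difference in footprint to RNA ratio between shRNAs.

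The 5 genes together made 1.72 to 3.74% of the counts of an RNA library, nearly all Malat1, and 0.626 to 2.16% of an RPF library, mostly Rnu11 and Gm20594. All other genes with a biotype other than protein coding (3761, of which 362 were pseudogenes or of other kinds) took 2.41 ± 0.65% (SD, n = 6) of RNA counts and 1.58 ± 0.49% of RPF counts. The share was lower in RPF in 5 of 6 cultures, by 0.832 ± 0.854 percentage points, and did not pass an exact paired permutation test (two-sided p = 0.0625, where 0.0312 is the smallest possible). For lncRNAs alone, members left out, it was 0.716 ± 0.080% and 0.346 ± 0.037%, lower in RPF in 6 of 6 cultures (exact p = 0.0312).

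**Figure D4:**
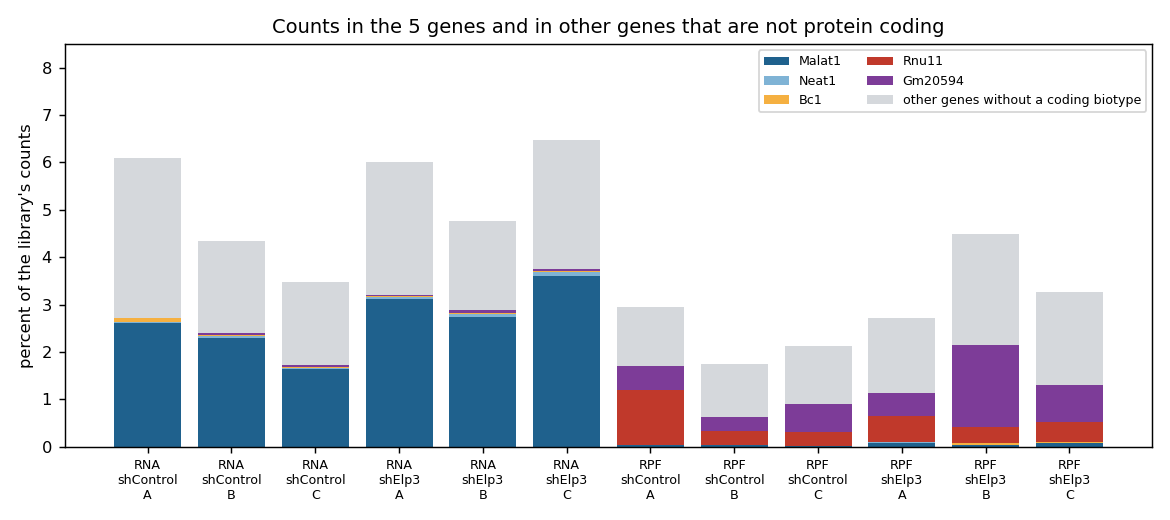
Percent of each library's counts (vertical axis) taken by the 5 genes (colours) and by other genes with a biotype other than protein coding (grey), 1 bar per library. Malat1 fills most of the coloured part in the 6 RNA libraries, at 1.63 to 3.60%, and Rnu11 and Gm20594 fill most of it in the 6 RPF libraries.

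Genes whose levels most resembled each of the 5 were sought by Pearson's r of log2 CPM over the 12 libraries, each fraction centred on its mean, among 8710 genes. Malat1 was nearest to Ankrd39 (0.939), Cox19 (0.903) and Ccdc37 (0.897), and Neat1 to Slc41a2 (0.954), Grina (0.952) and Acox3 (0.941). Bc1 was nearest to Paip2 (0.940), Nbr1 (0.937) and Gstm7 (0.918). Rnu11 had Eif3f (0.920), Zfp36l1 (0.920) and Cep85l (0.911), and Gm20594 had Rfx7 (0.905), Ppig (0.873) and Sesn3 (0.872). All points come from the same 12 libraries, in which letter A stands apart, so a shared letter pattern enters these values. Among the 5 themselves Malat1 and Neat1 had r of 0.899 over the 6 RPF libraries and 0.153 over the 6 RNA libraries, and Bc1 and Neat1 had 0.792 and -0.706.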

How the data were processed

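The authors deposited raw, whole-number counts per gene symbol. The submitters' processing notes name mm10 as build and, as tools, HTSeq, TopHat2 2.1.1, Bowtie and bcl2fastq. Not given in the sources used here are the annotation, strand setting, counted feature and any filtering of ribosomal reads. Depth limits Neat1 footprints most. Of 24421 symbols, 24300 had a RefSeq biotype (GRCm38.p6).

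CPM were scaled by TMM over the 12 libraries. Tests used edgeR 4.0.16 (glmQLFTest, R 4.3.3), filterByExpr with a minimum count of 10 and Benjamini-Hochberg adjustment at 0.05, within a fraction for shRNA effects, and over all 12 libraries for RPF against RNA and its interaction with shRNA, where genes had to pass in both fractions. An SE is the log2 fold change over the root of F. The code was tested on simulated counts. A p-value here reflects only variation among these cultures, which may be technical.

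Same-letter deviations correlated across shRNAs in RNA (r of 0.825, 0.479 and 0.636 for A, B and C). In RPF they did not in all letters (0.342, -0.097 and 0.247). The criterion of r over 0.1 in every same-letter pair was thus met in RNA only. Different letters were as close (0.737 for shControl B with shElp3 C, 0.614 for C with B), so these values mainly set A apart. RPF and RNA of a culture are tied by the labels, which do not say that letters pair the shRNAs. The main fits used group means with no block, in RNA and for RPF against RNA alike. Each SE of a fold change and each call given without a setting comes from these unblocked fits. Alternatives were DESeq2 1.42.0, RLE factors, scaling on coding genes, no count filter, replicate blocks, each library left out, and letters B and C only.

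The genes and lists were chosen with earlier results of these data known. Named beside the 5 were Elp3 and the 3 most abundant and up to 3 called members of each list per comparison (not all are printed). Also named were the 5 other genes with the most footprints among those with a biotype other than protein coding, and the 3 genes most similar to each of the 5.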

Additional observations from a re-analysis of the deposited data

How the results depend on the processing

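The number of genes called between shRNAs in RNA was 140 and became 652 (DESeq2), 1499 (replicate block), 2377 (only letters B and C) and 0 to 540 with 1 library left out (540 without shControl A, 0 without any other). In RPF it was 548 and became 1308 (DESeq2), 2477 (only letters B and C) and 0 to 2856 with 1 library left out (2856 without shControl A, 52 and 59 without shControl B and C, 0 without any shElp3 library); the replicate block gave 666, and Smarca4 and Pnn were then not called. For the footprint to RNA ratio it was 0, also with the culture as a block, and 2 with letters B and C only. For RPF against RNA in shControl it was 4100, 5283 with the culture block and 7294 with letters B and C only. The cause of these shifts was not tested. LncRNAs lower in RPF numbered 94 of 163, and 317 of 1026 with no count filter (more genes tested). Under the other alternatives they numbered from 73 of 186 (without RPF shControl C) to 110 of 171 (letters B and C only). This check was added after the data were seen. For the share of counts from other genes that are not protein coding (-0.832 percentage points, RPF minus RNA), the value was -0.255 without the 20 most abundant of them (exact p = 0.0312), -0.370 for lncRNAs only, -0.832 without the replicate block (exact permutation p = 0.0303), and -1.09 to -0.575 with 1 culture left out. Of the alternative values for the 5 genes, 286 moved by less than the SE of the main fit and the other 14 were of Bc1, Rnu11 and Gm20594. RPF against RNA in shElp3 is not in that count. There Gm20594 went from 4.92 (SE 0.84) to 5.80 without RNA shElp3 B. Depth limits Neat1 in shControl footprints, at 32 to 56 fragments a library.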
